A study of Mus musculus with 2 samples.

Results

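The genes described are 10 members of the MHC class I antigen presentation pathway: the heavy chains H2-K1, H2-D1, H2-T23 and H2-Q7, the light chain B2m, the loading genes Tap1 and Tapbp, the transactivator Nlrc5, and the immunoproteasome subunits Psmb8 and Psmb9. All 10 were found among the 33696 genes measured. They were followed across cell classes of mouse tumours of the ID8 ovarian cancer model and between 2 single-cell libraries. ID8 is a line derived from the ovarian surface epithelium of C57BL/6 mice that grows in the peritoneal cavity of immunocompetent hosts. The chemoresistant library came from solid tumours labelled as treated with cisplatin, a platinum compound that damages DNA, and the primary library from treatment-naïve solid tumours. Both were made in the same way from dissociated, pooled tumours with 3′ v3 chemistry. Neither the age of the mice, the number of tumours in a pool, nor the dose or timing of cisplatin is stated in the labels. Each group is therefore 1 library, no difference has a replicate check, and every interval is a 95% interval of counting error alone.

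MHC class I molecules carry short peptides from a cell's own proteins to its surface, where CD8 T cells and natural killer cells read them. Proteasomes cut proteins into peptides, and in the immunoproteasome the subunits Psmb8 and Psmb9 take the places of Psmb5 and Psmb6. The transporter of which Tap1 is one chain pumps peptides into the endoplasmic reticulum, tapasin (Tapbp) bridges the transporter to the heavy chain, and B2m completes the complex. Nlrc5 drives transcription of class I genes, and interferons raise the whole pathway. Loss of class I from tumour cells is a known route of escape from T cells.

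The chemoresistant library held 13130 cells after filtering, at a median of 4156 UMIs (unique transcript counts), and the primary library 12520 cells at 5633 UMIs. Cell classes were set in each cell by how many markers of a list were detected, and no list held any of the 10 genes. The tumour-like class held 2842 chemoresistant and 604 primary cells, and all 11 of its markers (keratins, Msln, Wt1 and others) were seen in at least 20% of its cells in both libraries. Since ovarian surface epithelium and peritoneal lining share these markers, this class can hold host mesothelial cells. The libraries shared 39 cell barcodes. Some classes drew on unlike clusters: 95.4% of the chemoresistant fibroblast-like cells lay in cluster 17, led by Col1a1, Cryab and Igfbp7, while 92.5% of the primary ones lay in cluster 14, led by Mgp, Col1a2 and Dcn. Among the B-cell-like cells, cluster 0 held 80.9% of the chemoresistant cells and cluster 2 held 62.2% of the primary ones.

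Of the 10 genes, 8 lie on chromosome 17 between Tapbp, which starts at position 33915899, and H2-T23, which ends at 36032855 (GENCODE vM21 on GRCm38). B2m lies on chromosome 2 and Nlrc5 on chromosome 8. The promoter stretches shown here surround letter matches to class I control motifs, to set genes with like and unlike letters beside their levels below. They are RefSeq sequences of GRCm38.p6 and run 5′ to 3′ on the strand of the gene. Capitals mark matches, on either strand, to the NF-kB site of enhancer A (GGGGATTCC), an interferon response element (GAA and GAAAC parted by any 2 bases), the CRE-like core of the X2 box (TGACG) and the CCAAT box (CCAAT).
H2-K1, chr17:34000323-34000470, minus strand: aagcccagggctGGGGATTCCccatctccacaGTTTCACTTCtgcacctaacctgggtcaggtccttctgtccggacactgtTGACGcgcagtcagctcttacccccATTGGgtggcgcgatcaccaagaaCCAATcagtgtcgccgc
H2-D1, chr17:35262911-35263057, plus strand: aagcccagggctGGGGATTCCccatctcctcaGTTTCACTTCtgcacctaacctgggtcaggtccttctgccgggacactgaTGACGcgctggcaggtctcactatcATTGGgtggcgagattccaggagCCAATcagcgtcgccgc
H2-Q7, chr17:35439010-35439155, plus strand: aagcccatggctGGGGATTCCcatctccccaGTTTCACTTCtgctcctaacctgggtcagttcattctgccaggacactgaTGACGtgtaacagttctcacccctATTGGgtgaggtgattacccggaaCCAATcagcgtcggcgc
H2-T23, chr17:36032737-36032765, minus strand: gttttctaaaagCCAATcagcgacgcaga
B2m, chr2:122147597-122147650, plus strand: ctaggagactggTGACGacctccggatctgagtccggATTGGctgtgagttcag
Tap1, chr17:34187322-34187486, plus strand: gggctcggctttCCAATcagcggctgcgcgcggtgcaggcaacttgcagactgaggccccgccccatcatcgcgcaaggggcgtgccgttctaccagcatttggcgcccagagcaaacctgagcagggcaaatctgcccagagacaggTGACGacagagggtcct

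H2-K1, H2-D1 and H2-Q7 carried all 4 motifs in the same order. The aligned stretches were identical at 88.5% of positions between H2-K1 and H2-D1, 83.8% between H2-K1 and H2-Q7 and 84.5% between H2-D1 and H2-Q7. Of 27025 mouse promoters taken from 250 bases before to 50 bases after the start site, 0.259% held the enhancer A letters, 1.77% the interferon response element, 21% TGACG and 37.9% CCAAT. H2-T23 matched the CCAAT box alone and B2m the X2 core and the CCAAT box. Tap1 and Psmb9 are transcribed away from each other from the same stretch, so the Tap1 sequence above is, read on the other strand, that of Psmb9. Psmb8 had none of the 4 and Tapbp the CCAAT box alone in the RefSeq stretches searched. These begin at 34197945 for Psmb8 and 33919228 for Tapbp, after their GENCODE gene starts at 34197721 and 33915899. The H2-D1 stretch searched likewise begins, at 35262844, after its gene start at 35262730. The bases before these gene starts were not searched. A match is a description of letters, not of a bound site. Only these exact letters were searched, so a missing match, as in B2m, does not show that such an element is absent.

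All 10 genes were read in every class compared, and their order across classes was gene by gene (the plot of summed levels by class). Levels are given as CPM, the UMIs of a gene scaled to counts per 1e+06 UMIs of the class. B2m was highest among mononuclear phagocyte-like cells (monocytes and macrophages) and dendritic-like cells in the chemoresistant library, at 2235 CPM in each class and indistinguishable by counting error. In the primary library it was highest in the phagocyte-like class, at 1740.05 CPM. H2-K1 was highest in T-cell-like cells in both, at 1703 CPM in the chemoresistant and 1354 CPM in the primary library, and H2-D1 was highest in phagocyte-like cells, at 1526 and 1425 CPM.

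**Figure D1:**
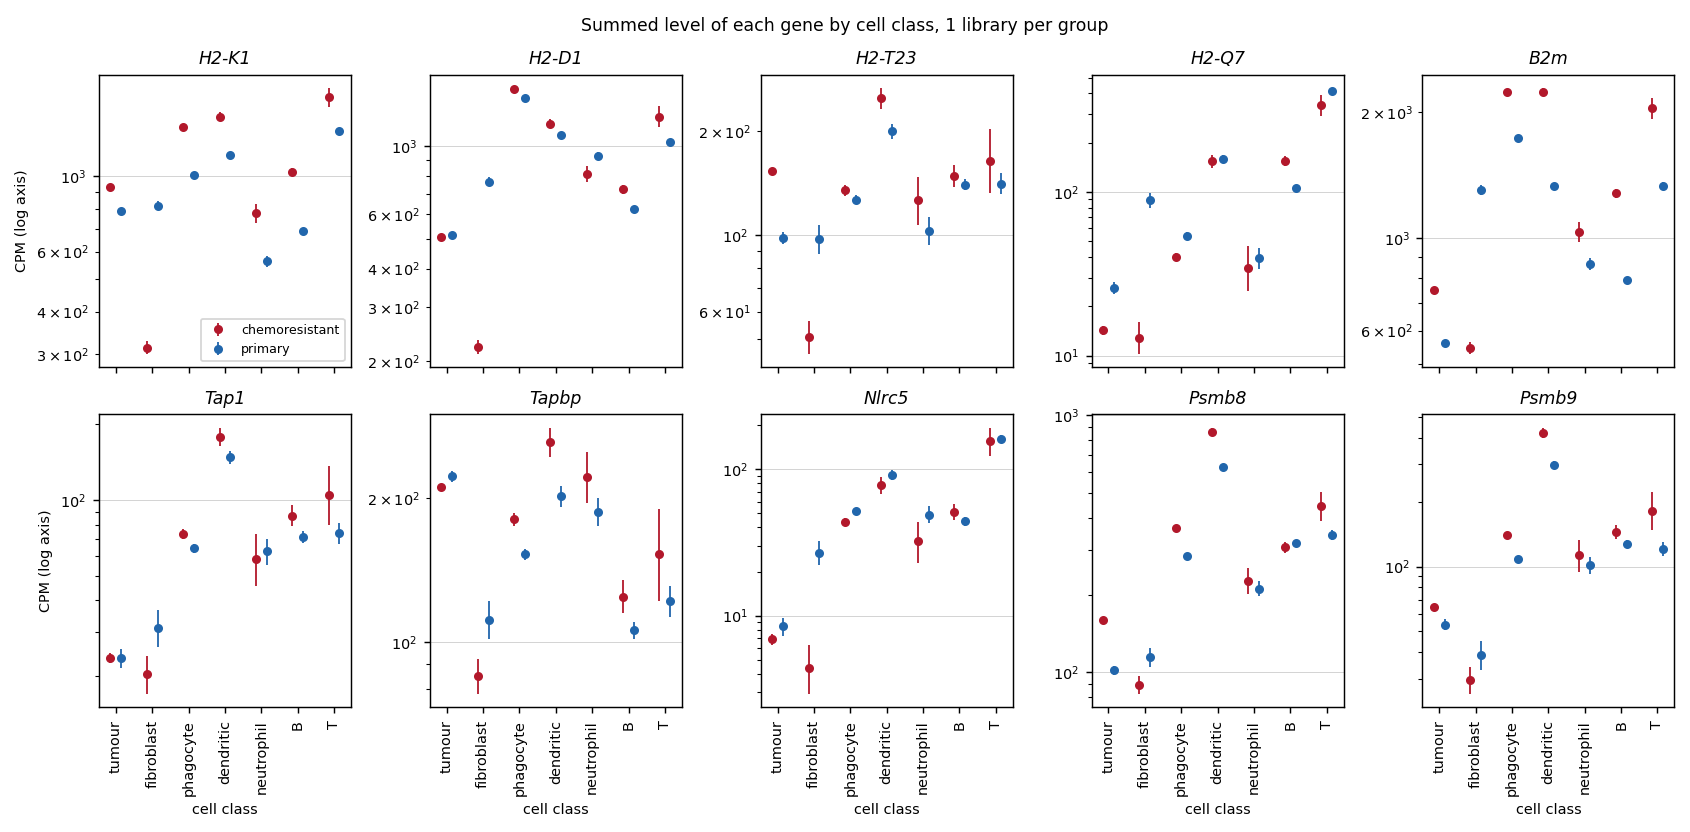
Summed level of each of the 10 genes (CPM, log axis) in 7 cell classes, chemoresistant (red, left) and primary (blue, right) within each class; points are 1 library each and bars are exact Poisson 95% intervals. H2-Q7 and Nlrc5 peaked in the T class in both libraries, while Psmb8, Psmb9 and Tap1 peaked in the dendritic class.

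H2-Q7 and Nlrc5 varied most between classes. H2-Q7, of the Qa-2 family, stood at 339 CPM in chemoresistant and 416 CPM in primary T-cell-like cells, and at 14.3 and 26.0 CPM in the tumour-like class. Among the 8 chemoresistant classes with at least 50 cells, the highest was 26.4 times the lowest, and among 12 primary classes 30.1 times. Nlrc5 stood at 155 and 161 CPM in T-cell-like cells and at 6.91 and 8.43 CPM in the tumour-like class, where the T level was 22.4 times the tumour level in the chemoresistant and 19.1 times in the primary library. H2-K1 and H2-D1, with promoter stretches 83.8% and 84.5% identical to that of H2-Q7, spanned 5.43-fold and 6.85-fold over the chemoresistant classes. Over the primary classes they spanned 2.68-fold and 3.75-fold. In the T-cell-like class the T markers sum to 5284 CPM in the chemoresistant and 4837 CPM in the primary library, while in the tumour-like class they sum to 6.34 and 13.5 CPM.

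The immunoproteasome and transport genes peaked in dendritic-like cells, which present antigen to T cells. Psmb8 reached 862 CPM there in the chemoresistant and 628 CPM in the primary library, Psmb9 421 and 299 CPM, and Tap1 178 and 148 CPM. Tap1 was 7.52 times the tumour-like level in the chemoresistant and 6.28 times in the primary library. Tapbp was the flattest of the 10 in both libraries, spanning 3.09-fold over the chemoresistant and 2.48-fold over the primary classes. It was also the one gene for which the tumour-like class stood at the top of the primary order, at 222 CPM, with dendritic-like cells next at 202 CPM.

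Tumour-like cells stood below phagocyte-like, dendritic-like and T-cell-like cells for H2-K1, H2-D1 and B2m in both libraries. H2-K1 was their most abundant heavy chain, at 927 CPM in the chemoresistant and 790.2 CPM in the primary library, against 1391 and 1009 CPM in phagocyte-like cells. It was above the neutrophil-like class in both libraries, at 777 and 562 CPM, and above the B-cell-like class in the primary library, at 690.1 CPM. H2-T23 in the chemoresistant tumour-like class, at 153 CPM, stood above the phagocyte-like class at 134 CPM, while the primary tumour-like class stood below it, at 97.9 against 126 CPM. Markers of phagocytes in the tumour-like class summed to 1.16% of their level in the phagocyte-like class itself in the chemoresistant library and 1.68% in the primary library, and their part in these levels was not tested. H2-T23 encodes the heavy chain of Qa-1, which presents to the inhibitory NKG2A receptor of natural killer and CD8 T cells.

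The comparison of chemoresistant with primary tumour-like cells asked whether class I expression differs after cisplatin. The 10 genes did not move together there. H2-T23 stood at 153 CPM in chemoresistant and 97.9 CPM in primary tumour-like cells, a ratio of 1.56 (log2 0.64, interval 0.58 to 0.71). Psmb8 stood at 159 and 102 CPM, also a ratio of 1.56 (log2 0.64, interval 0.58 to 0.71). H2-Q7 went the other way, at 14.3 CPM in chemoresistant and 26.0 CPM in primary cells (log2 -0.86, interval -1.01 to -0.71). These were the members past a 1.5-fold limit: 2 were higher, where 5.05% of the 8870 genes tested were, and 1 was lower, where 13.9% were.

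B2m came next, at 751 CPM in chemoresistant and 561 CPM in primary tumour-like cells (log2 0.42). H2-K1 was at 927 and 790.2 CPM (log2 0.23) and Psmb9 at 65.0 and 53.6 CPM (log2 0.28). H2-D1, at 507 and 515 CPM, and Tap1, at 23.7 and 23.5 CPM, had intervals that include equality. Tapbp was at 211 and 222 CPM (log2 -0.08) and Nlrc5, below the 10 CPM limit, at 6.91 and 8.43 CPM (log2 -0.29). The median of the 10 log2 ratios was 0.12, while that of all genes tested in the class was -0.15. The median of the 10 changed sign with the weighing of cells, to -0.020 as a mean over cells, -0.12 after thinning to 1000 UMIs and -0.10 as a mean over 2 shared clusters. H2-K1, H2-D1 and H2-Q7, whose promoter stretches were 83.8% to 88.5% identical, had log2 ratios of 0.23, -0.02 and -0.86. The part of the promoters in these ratios was not tested.

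**Figure D2:**
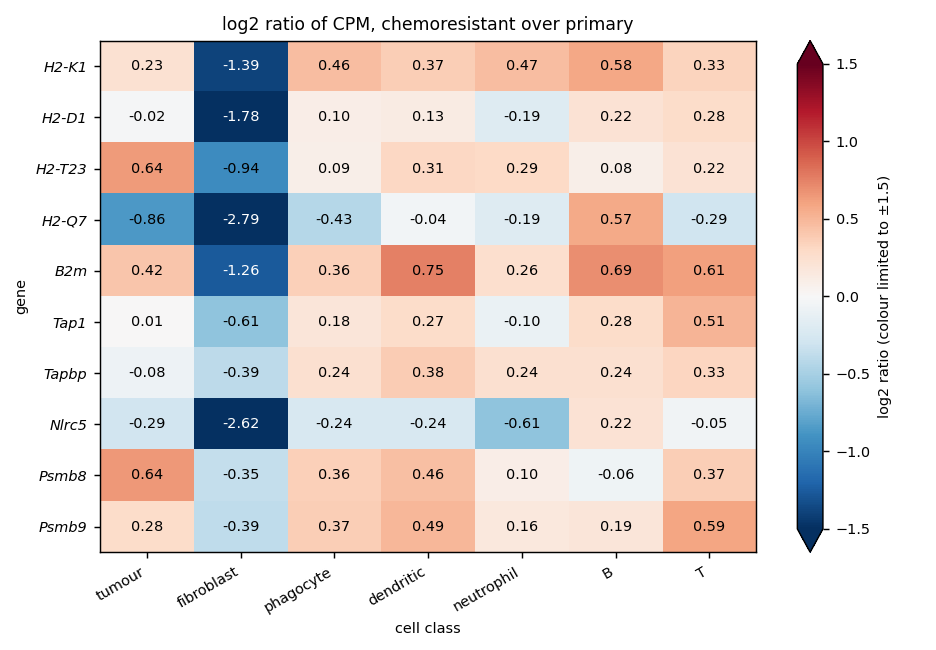
Log2 ratio of CPM, chemoresistant over primary, for the 10 genes (down) in 7 cell classes (across), with the value in each cell and colour limited to ±1.5. The fibroblast column is below 0 for all 10 genes, B2m is above 0 in every other class (in tumour cells it was -0.11 as a mean over 2 shared clusters), and the tumour column runs from -0.86 to 0.64.

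The size of the tumour-like differences depended on how cells were weighed. With each cell given equal weight, H2-T23 had a log2 ratio of 0.46 and Psmb8 of 0.50, both short of 1.5-fold, and H2-Q7 of -1.42. With cells thinned to 1000 UMIs, H2-T23 stood at 0.79 and Psmb8 at 0.49. With doublets kept, H2-T23 fell just short, at 0.58, and with classes taken from clusters Psmb8 did, at 0.49. H2-Q7 was past 1.5-fold in 14 of 14 alternatives. Cluster 1 alone, described below, was not among them, and there H2-Q7 was short of 1.5-fold, at -0.50.

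Within the tumour-like class, H2-K1 and Psmb8 differed between clusters of the chemoresistant library by more than the whole class did between libraries. Cluster 1, led by Tm4sf1, Kcnd2 and Lgals7, held 1657 chemoresistant and 169 primary cells. H2-K1 stood there at 1117 CPM in the chemoresistant and 883 CPM in the primary library, Psmb8 at 198 and 129.8 CPM, and B2m at 810.1 and 483 CPM (log2 0.74). Cluster 12, led by Sparc, Krt19 and Hspb1, with the hypoxia-responsive genes Ndrg1 and Ero1a among its leading genes, was nearly all chemoresistant. H2-K1 was at 353 CPM in its 567 chemoresistant cells, H2-T23 at 40.0 CPM, Psmb8 at 50.7 CPM and Tap1 at 13.1 CPM. All of these lie below the same genes in chemoresistant cells of cluster 1, where H2-T23 stood at 201 CPM and Tap1 at 26.5 CPM. Cluster 20, with 251 chemoresistant cells, had the highest B2m of these clusters in that library, at 1098 CPM, with H2-T23 at 86.8 CPM. Cluster 15, led by Cxcl1, held 42.5% of the primary tumour-like cells and had H2-K1 at 677 CPM and Psmb8 at 72.5 CPM.

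Cluster 13 was the second cluster with at least 50 tumour-like cells in both libraries, 287 chemoresistant and 57 primary. It was led by Gstm2, Lgals7 and Gstm1, with a median of 2414 UMIs per cell over the whole cluster. H2-K1 was at 133 CPM in chemoresistant and 458 CPM in primary cells, and B2m at 305 and 717 CPM. Psmb8 was at 214 CPM in chemoresistant and 73.8 CPM in primary cells, from 310 and 29 UMIs. There 6 of the 10 genes were past 1.5-fold lower, 4 of them among the 7 with at least 10 CPM, where 30.2% of 7828 genes were lower, and 1, Psmb8, was higher, where 19.1% were. In cluster 1, 2 of the 10, B2m and Psmb8, were past it in the higher direction, where 3.93% of genes were, and 0 in the lower one, where 13.7% were. H2-T23 had a log2 ratio of 0.58 in cluster 1 and -0.14 in cluster 13, and H2-Q7 of -0.50 and, on 3 and 5 UMIs, -2.62.

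**Figure D3:**
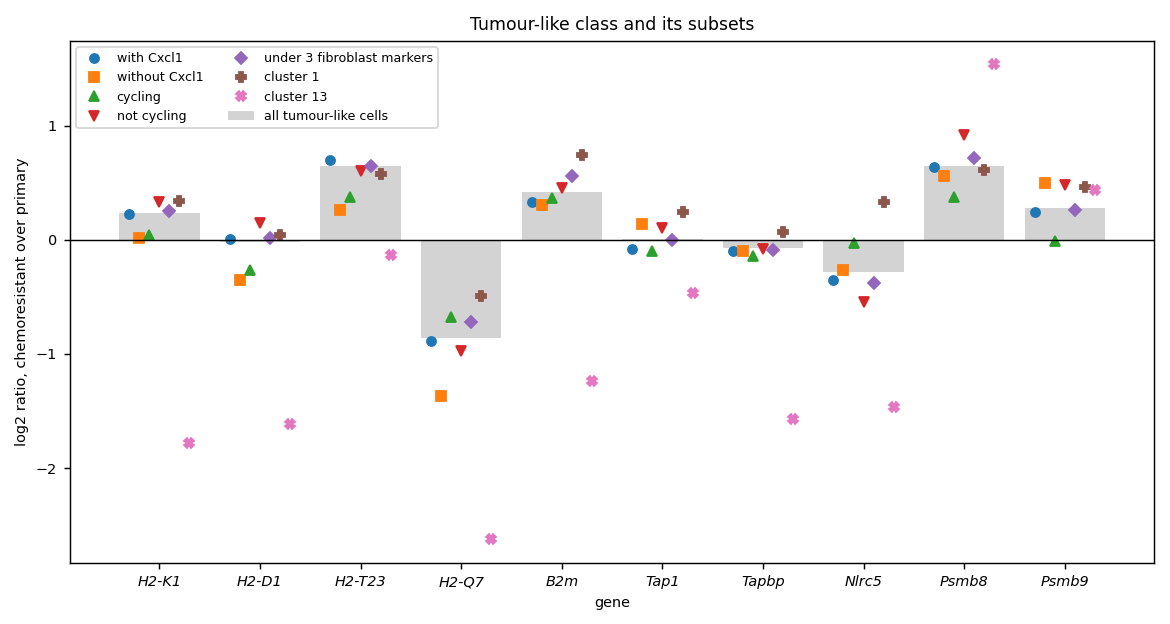
Log2 ratio, chemoresistant over primary, of each gene in all tumour-like cells (grey bars) and in 7 overlapping subsets of them (symbols). H2-T23 and Psmb8 are above 0 and H2-Q7 below 0 in nearly every subset, while cluster 13 lies apart, with Psmb8 at 1.53 and H2-K1 at -1.78.

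Splits of the tumour-like class by single genes showed smaller differences. Cells without counts of Mki67, Top2a or Cdk1, called not cycling, had H2-T23 at 177 CPM in the chemoresistant library, where cycling cells had 102 CPM. The primary library had the same direction, at 117 and 79.0 CPM. Psmb8 did not follow it: it was at 163 CPM in not cycling and 151 CPM in cycling chemoresistant cells, and at 86.5 and 117 CPM in primary cells. Between the libraries Psmb8 had a log2 ratio of 0.91 among not cycling and 0.37 among cycling cells. Cells with a Cxcl1 count had less H2-Q7 than cells without one in both libraries, 12.3 against 15.8 CPM in chemoresistant and 22.8 against 40.8 CPM in primary cells. A count of any gene is more often seen in deep cells, so these splits also part cells by depth, and the role of depth was not tested. Markers of fibroblasts in the tumour-like class summed to 607 CPM in the chemoresistant and 1347 CPM in the primary library, with 0 of 10 markers higher in the chemoresistant one. H2-Q7 in primary fibroblast-like cells stood at 89.0 CPM. Without the cells that carry 3 or more fibroblast markers, H2-Q7 kept a log2 ratio of -0.72, H2-T23 of 0.64 and Psmb8 of 0.71.

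Fibroblast-like cells showed the largest differences of any class. All 10 genes were lower in the chemoresistant library, although Tap1, Tapbp and Psmb8 were not once cells were thinned to 1000 UMIs, and 7 of them were past 1.5-fold, where 34.3% of the 9010 genes tested were. H2-Q7 stood at 12.8 CPM in chemoresistant and 89.0 CPM in primary cells (log2 -2.79) and Nlrc5 at 4.39 and 26.9 CPM (log2 -2.62). H2-D1 was at 223 and 765 CPM (log2 -1.78), H2-K1 at 314 and 819 CPM (log2 -1.39) and B2m at 545 and 1303 CPM (log2 -1.26). H2-T23 was at 50.6 and 97.1 CPM (log2 -0.94). Tap1 was at 20.4 and 31.1 CPM (log2 -0.61). Psmb8, at 89.5 and 114 CPM, Psmb9, at 29.5 and 38.5 CPM, and Tapbp, at 84.9 and 111 CPM, were within 1.5-fold. After thinning to 1000 UMIs Psmb9 stood at -1.61, where 6 of 411 chemoresistant and 13 of 291 primary cells had a count.

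These fibroblast-like cells were not of the same kind in the 2 libraries, and that cannot be told apart from the difference between the libraries. Of 10 fibroblast markers, 8 were detected in at least 20% of chemoresistant and 10 in at least 20% of primary cells. Tumour markers summed to 583 and 518 CPM, which is 14.0% and 13.02% of their level in the tumour-like class. Among cells with fewer than 3 tumour markers, 196 chemoresistant and 246 primary, the median log2 ratio of the 10 genes was -0.96, against -1.10 over all fibroblast-like cells. Psmb8 was not lower among those cells, at 104 CPM in chemoresistant and 95.4 CPM in primary ones (log2 0.13), and Tapbp had a log2 ratio of -0.12. B lymphocyte markers summed to 32.0 CPM in chemoresistant and 866 CPM in primary fibroblast-like cells, and their part in the result was not tested.

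In the leukocyte classes B2m and H2-K1 were higher in the chemoresistant library throughout. B2m was higher in the chemoresistant library in all 5 classes, at 2235 against 1329 CPM in dendritic-like cells (log2 0.75), 1279 against 791 CPM in B-cell-like cells (log2 0.69) and 2044 against 1334 CPM in T-cell-like cells (log2 0.61). It was at 2235 against 1740.05 CPM in phagocyte-like cells (log2 0.36) and 1035 against 867 CPM in neutrophil-like cells (log2 0.26). H2-K1 was at 1391 against 1009 CPM in phagocyte-like (log2 0.46) and 777 against 562 CPM in neutrophil-like cells (log2 0.47), both further apart than B2m there. It had log2 ratios of 0.37 in dendritic-like, 0.58 in B-cell-like and 0.33 in T-cell-like cells, while those of H2-D1 were between -0.19 and 0.28. Of the UMIs of H2-K1, H2-D1, H2-T23 and H2-Q7 alone, H2-K1 made up 45.0% in chemoresistant and 38.6% in primary phagocyte-like cells. It made up 44.4% and 34.5% in neutrophil-like cells. In the tumour-like class it made up 57.9% and 55.3%, the highest share of the 7 classes in both libraries. Tumour markers in neutrophil-like cells summed to 31.0% of their tumour-like level in the chemoresistant and 8.83% in the primary library. Their part in the neutrophil-like values was not tested.

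The other members moved less evenly across the leukocyte classes. H2-T23 had log2 ratios of 0.09 in phagocyte-like, 0.31 in dendritic-like, 0.29 in neutrophil-like, 0.08 in B-cell-like and 0.22 in T-cell-like cells, with levels from 126 to 248 CPM in the chemoresistant and 103 to 199.6 CPM in the primary library. H2-Q7 was at 156 against 105 CPM in B-cell-like cells (log2 0.57) but at 339 against 416 CPM in T-cell-like (log2 -0.29) and 40.1 against 54.1 CPM in phagocyte-like cells (log2 -0.43). Its ratios in dendritic-like (log2 -0.04) and neutrophil-like cells (log2 -0.19) had intervals that include equality. H2-Q7 was thus higher in the chemoresistant library in 1 of the 5 classes. Tapbp had log2 ratios between 0.24 and 0.38 in the 5 classes, and Tap1 of 0.18 in phagocyte-like, 0.27 in dendritic-like, -0.10 in neutrophil-like, 0.28 in B-cell-like and 0.51 in T-cell-like cells. Psmb8 was at 363 against 283 CPM in phagocyte-like (log2 0.36), 862 against 628 CPM in dendritic-like (log2 0.46) and 442 against 342 CPM in T-cell-like cells (log2 0.37), with log2 ratios of 0.10 in neutrophil-like and -0.06 in B-cell-like cells. Psmb9 had 0.37 in phagocyte-like, 0.49 in dendritic-like, 0.16 in neutrophil-like and 0.19 in B-cell-like cells. Nlrc5, the transactivator, had log2 ratios of -0.24 in both phagocyte-like and dendritic-like cells, 0.22 in B-cell-like and -0.05 in T-cell-like cells.

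Few of the 10 were past 1.5-fold over whole leukocyte classes. Of the 10 genes, 1 was past 1.5-fold higher in dendritic-like cells (B2m), where 3.01% of genes were. In B-cell-like cells it was again B2m, where 3.66% of genes were, and in T-cell-like cells B2m and Psmb9, where 10.8% were, with 0 lower, where 18% were. Nlrc5 was past it in the lower direction in neutrophil-like cells, at 32.1 against 48.9 CPM (log2 -0.61), where 19.2% of genes were. In phagocyte-like cells 0 of 10 were past it, where 2.26% of genes were higher and 14.6% lower. The median log2 ratio of the 10 genes was 0.34 in dendritic-like, 0.33 in T-cell-like, 0.23 in B-cell-like, 0.21 in phagocyte-like and 0.13 in neutrophil-like cells. That of all genes tested was -0.29, -0.07, -0.12, -0.27 and -0.07 in the same classes. Psmb9 in T-cell-like cells, at 182 against 121 CPM from 99 and 689 UMIs, fell to 0.26 after thinning, and Nlrc5 in neutrophil-like cells to -0.43. B2m in T-cell-like cells had a log2 ratio of 0.51 after thinning and of 0.49 with classes taken from clusters, both short of 1.5-fold.

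Within the dendritic subsets named here and in CD4 T-like cells without Foxp3 the B2m difference was found again. CD8 T-like cells had 1 of the 10 genes past 1.5-fold higher, which was not B2m. Dendritic-like cells of the migratory kind, marked by Ccr7, Fscn1 and Ccl22, had the highest B2m of any subset named here, at 4176 CPM in 172 chemoresistant and 2365 CPM in 164 primary cells (log2 0.82). Type 2 dendritic-like cells stood at 1829.8 and 1121 CPM (log2 0.71) and type 1 at 1293 and 847 CPM (log2 0.61). Type 1 dendritic cells take up dead cells and present their antigens on class I, and they had Tap1 at 193 and 192 CPM, with Nlrc5 lower in the chemoresistant library, at 48.6 against 81.0 CPM (log2 -0.74). CD8 T-like cells had Psmb9 at 275 CPM in 67 chemoresistant and 129.8 CPM in 250 primary cells, from 41 and 204 UMIs (log2 1.08). CD4 T-like cells without Foxp3 had B2m at 2129.6 and 1331 CPM (log2 0.68), Psmb8 at 556 and 330.2 CPM (log2 0.75) and Tap1 at 116 and 69.7 CPM (log2 0.74).

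The phagocyte-like and neutrophil-like classes hid opposite movements. Cluster 10, led by Cxcl2, Il1b and Ccl4, had 9 of 10 genes past 1.5-fold lower in its 508 chemoresistant than in its 296 primary phagocyte-like cells, where 28.4% of genes in the cluster were, with a median log2 ratio of -1.15 against -0.23 for all genes. H2-T23 was at 55.8 and 219 CPM there (log2 -1.98) and Tap1 at 29.3 and 135 CPM (log2 -2.20), while B2m was at 2150.05 and 2539 CPM (log2 -0.24). Cluster 3, led by Retnla, Ccr2 and F13a1, had 2 of 10 past it in the higher direction, H2-K1 at 1279.9 against 845 CPM (log2 0.60) and Tap1 at 109.7 against 70.3 CPM (log2 0.64), where 2.72% of genes were. In cluster 4, which held 90.2% of chemoresistant and 85.5% of primary neutrophil-like cells, 6 of 10 were past it in the higher direction, where 10.9% of genes were, Nlrc5 among them at 48.8 against 12.7 CPM from 32 and 41 UMIs, opposite to its ratio over the whole class. Tumour and erythroid markers were higher in chemoresistant than in primary neutrophil-like cells, at 1286 against 351 CPM and 2181 against 189 CPM. The tumour markers reached 31.0% and 8.83% of their level in the tumour-like class. The part of these markers in the neutrophil-like ratios was not tested. In B-cell-like cells, the mean over 4 clusters found in both libraries gave log2 ratios of 0.45 for B2m, 0.28 for H2-K1 and 0.03 for H2-Q7, against 0.69, 0.58 and 0.57 over the whole class.

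The immunoproteasome was followed as the UMIs of each inducible subunit out of those of the inducible and constitutive partner together. Capture can differ between genes, so these shares are compared between classes and libraries and are not molar ratios. Psmb8 made up 44.7% of its pair with Psmb5 in chemoresistant and 34.7% in primary tumour-like cells, and Psmb9 made up 17.2% and 13.2% of its pair with Psmb6. The intervals of the libraries did not overlap in either pair. Psmb10, the third inducible subunit, went the other way, at 29.1% of its pair with Psmb7 in chemoresistant and 32.8% in primary tumour-like cells. Psmb10 itself was at 52.4 and 47.1 CPM and Psmb7 at 127 and 96.6 CPM, so both partners were higher and Psmb7 by more. Psmb5 was at 196 and 192 CPM and Psmb6 at 313 and 353 CPM.

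**Figure D4:**
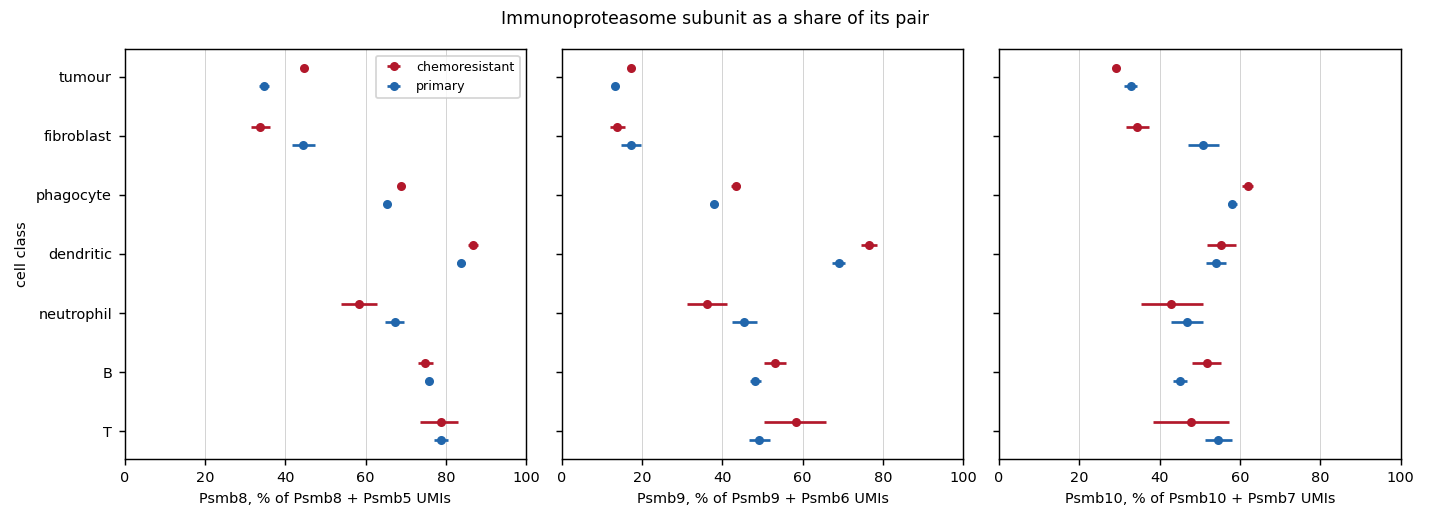
UMIs of Psmb8, Psmb9 and Psmb10 as a percentage of the pair with their constitutive partner (horizontal axes) in 7 cell classes, chemoresistant (red, above) and primary (blue, below); bars are exact 95% binomial intervals. Dendritic cells lie furthest right for Psmb8 (86.9% and 83.7%) and Psmb9 (76.5% and 68.9%), and tumour and fibroblast cells furthest left for these subunits.

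Dendritic-like cells had the highest shares of Psmb8 and Psmb9, with Psmb8 at 86.9% in the chemoresistant and 83.7% in the primary library and Psmb9 at 76.5% and 68.9%. Psmb10 was different: its share was highest in phagocyte-like cells, at 61.9% and 58.1%, against 55.3% and 54.0% in dendritic-like cells. In fibroblast-like cells all 3 shares were lower in the chemoresistant library, Psmb8 at 33.8% against 44.5%, Psmb9 at 13.7% against 17.1% and Psmb10 at 34.5% against 50.8%. The intervals of Psmb9 overlap there. In neutrophil-like cells the chemoresistant shares were lower for Psmb8, at 58.5% against 67.3%, and for Psmb9, at 36.1% against 45.4%, with Psmb5 at 161 against 103 CPM. Those of Psmb10, at 42.9% and 46.8%, had overlapping intervals. Tumour markers in neutrophil-like cells summed to 31.0% of their tumour-like level in the chemoresistant and 8.83% in the primary library, and their part in these shares was not tested. In T-cell-like cells Psmb8 was at 78.7% and 78.8%, a difference well inside the intervals.

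Per cell, class I transcripts were counted after thinning each cell to 1000 UMIs, which leaves out shallower cells. Of neutrophil-like cells it left out 433 of 716 chemoresistant but 74 of 1449 primary ones, so unlike parts of that class are compared. The sum of the 4 heavy chains and B2m had a mean of 2.30 UMIs in 2796 chemoresistant and 2.21 UMIs in 597 primary tumour-like cells. Cells without any such UMI made up 24.5% (interval 22.9 to 26.2%) and 26.5% (22.97 to 30.2%), so a class of tumour-like cells that lost class I was not told apart from sampling at this depth. At 5000 UMIs the shares without any were 3.11% (2.46 to 3.86%) of 2509 chemoresistant and 1.47% (0.635 to 2.87%) of 546 primary cells, and those intervals overlap. In fibroblast-like cells the mean was 1.33 and 3.38 UMIs, and 37.2% and 10.3% of cells had none. Phagocyte-like cells had a mean of 5.36 and 4.33 UMIs, dendritic-like cells 5.60 and 3.82, and T-cell-like cells 5.33 and 4.46.

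**Figure D5:**
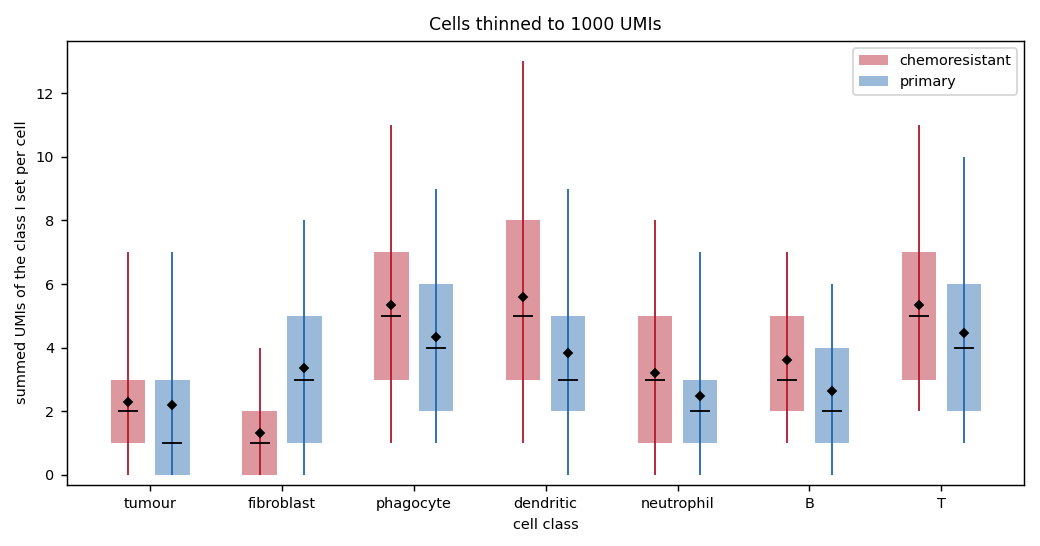
Summed UMIs of H2-K1, H2-D1, H2-T23, H2-Q7 and B2m per cell (vertical axis) in cells thinned to 1000 UMIs, chemoresistant (red, left) and primary (blue, right); boxes span the middle quartiles, lines the 5th to 95th percentile, dashes are medians and diamonds means. Tumour cells overlap almost wholly between libraries, fibroblasts are lower and the 5 leukocyte classes higher in the chemoresistant library. Neutrophils are shown for 283 of 716 chemoresistant and 1375 of 1449 primary cells.

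Shares of tumour-like cells with a transcript depended on the depth for H2-T23. It was found in 14.4% of chemoresistant and 8.71% of primary tumour-like cells at 1000 UMIs, and in 46.6% and 36.8% at 5000, but at 500 UMIs the chemoresistant share was the lower one. Psmb8 was found in 13.9% and 9.38%, and in 46.1% and 33.5% at 5000. H2-Q7 was found in 1.502% and 3.52%, and in 5.98% and 15.02% at 5000. Nlrc5 was found in 0.966% and 1.51% at 1000 UMIs, with overlapping intervals. Before thinning, Nlrc5 was found in 13.8% of chemoresistant and 20.03% of primary tumour-like cells, whose medians were 20687 and 32464.5 UMIs. Class I is expressed by nearly all nucleated cells, so no class serves as a true negative. Erythroid-like cells are no negative control either, with H2-K1 at 533 CPM in the chemoresistant and 506 CPM in the primary library. They had a Nlrc5 UMI in 2.48% of 161 chemoresistant and 12.3% of 65 primary cells, at medians of 2338 and 3950.0 UMIs. Free RNA was not estimated, so the tumour-like shares of Nlrc5 cannot be read as above it. Other members were near the erythroid-like level too. H2-Q7 stood at 14.3 CPM in tumour-like and 25.7 CPM in erythroid-like cells of the chemoresistant library, and at 26.0 and 32.7 CPM in the primary one. Psmb8 stood at 159 CPM in both classes of the chemoresistant library and at 102 and 103 CPM in the primary one. Psmb9 was at 65.0 and 61.1 CPM in the chemoresistant and 53.6 and 50.2 CPM in the primary library. Tap1 was at 23.7 and 27.5 CPM and at 23.5 and 21.8 CPM. B2m was at 561 and 563 CPM in the primary library, but at 751 and 620 CPM in the chemoresistant one. Levels of H2-Q7, Psmb8, Psmb9, Tap1 and primary B2m are thus not set apart from what erythroid-like cells hold, nor are these genes' ratios. H2-K1, H2-D1, H2-T23 and Tapbp stood above the erythroid-like level in both libraries, H2-T23 at 153 against 77.1 CPM and at 97.9 against 67.6 CPM.

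The surroundings of the pathway in tumour-like cells were taken from lists of related genes. Of the 19 regulators, 16 passed 10 CPM in that class, and 0 were past 1.5-fold higher while 3 were lower, against 5.05% and 13.9% of all genes, with a median log2 ratio of -0.25 against -0.15. A count of 3 of 16 is near that background. Irf1, an interferon-induced activator of class I and immunoproteasome genes, had the largest difference of them, at 44.1 CPM in chemoresistant and 494 CPM in primary cells (log2 -3.49). Nfkb1, a subunit of NF-kB, was at 72.6 and 223 CPM (log2 -1.62) and Ezh2, a histone methyltransferase, at 38.6 and 71.2 CPM (log2 -0.88). Highest among the regulators were Ciita, at 14.3 and 9.64 CPM (log2 0.56), Irf9, at 21.7 and 18.7 CPM (log2 0.21), and Nfyc, at 29.6 and 31.0 CPM (log2 -0.07).

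Of 11 interferon signalling genes, 9 passed the filter, and 0 were higher and 4 lower, against 5.05% and 13.9% of all genes, with a median log2 ratio of -0.50 against -0.15. Socs3, a feedback inhibitor of cytokine signalling, was at 57.6 CPM in chemoresistant and 247 CPM in primary tumour-like cells (log2 -2.10), Socs1 at 8.31 and 22.3 CPM (log2 -1.43) and the receptor chain Ifngr1 at 23.2 and 44.2 CPM (log2 -0.93). Ifnar2 was the highest, at 206 and 166 CPM (log2 0.31). Jak1, at 103 and 105 CPM, and Ifngr2, at 42.8 and 54.0 CPM, followed. Irf1 was lower in the chemoresistant library in every class compared, from log2 -0.17 in dendritic-like cells to -3.49 in tumour-like cells. In tumour-like cells it was lower beside H2-T23 and Psmb8 that were higher.

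Of the other class I genes, loading genes and proteasome partners with at least 10 CPM, 0 passed 1.5-fold in tumour-like cells. Of 12 other class I and class I-like genes, 3 passed the filter: H2-T22, at 56.8 and 49.3 CPM, H2-Q4, at 33.3 and 31.1 CPM, and H2-M3, at 9.97 and 12.3 CPM. Among those under 10 CPM, picked after their values were seen, H2-Q6, a close copy of H2-Q7, was at 5.04 and 11.5 CPM (log2 -1.19), H2-Q1 at 1.23 and 0.521 CPM (log2 1.24) and H2-M2 at 3.73 and 2.08 CPM (log2 0.84). Of 6 loading genes 5 passed, with Erap1, which trims peptides, at 13.4 and 13.3 CPM and Tap2 at 27.3 and 29.5 CPM. The chaperone Calr was at 309.6 and 371 CPM, the chaperone Canx at 245 and 289 CPM and the disulfide isomerase Pdia3 at 242 and 289.5 CPM. All 8 proteasome partners passed, with Psmb7 (log2 0.40), the assembly factor Pomp (log2 0.31) and Psmb10 (log2 0.15) highest and Psmb6 (log2 -0.17), Psme3 (log2 -0.10) and Psme1 (log2 -0.06) lowest. Of the 10 class I receptors, such as Cd8a and Klrd1, 0 passed 10 CPM in this class.

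Across the 20 class-by-library sums with at least 50 cells, the genes whose levels were most like the mean profile of the 10 were looked up among 9786 genes. The sums share libraries and depth, so the Pearson correlations are descriptions. Outside the 10 the closest were Armc8 (r = 0.88), Zfp810 (0.87), Tyk2 (0.87), Myo1g (0.86), Wdr37 (0.86), Tap2 (0.86), Tent2 (0.86) and Arhgef6 (0.86). The mean profile holds each of the 10, which raises their own correlation with it. Against the mean of the other 9, Psmb8 had r = 0.92, Tap1 0.91 and Psmb9 0.90, while H2-Q7 had 0.70 and Tapbp, the least alike, 0.44.

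Reads near the 3′ end can be shared between class I genes, which are close copies. Of 90-base windows in the last 500 bases of the annotated transcripts, 13.4% of those of H2-T23 and 4.73% of those of H2-Q7 also occur in another gene, and 0.151% of those of H2-K1. At 50 bases the shares were 38.1%, 11.8% and 9.6%. The levels of H2-T23 and H2-Q7 are uncertain to that extent, and how the authors' counting divided such reads was not stated. None of the 90-base windows of the other 7 genes was found in another gene.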

How the data were processed

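Single-cell RNA-seq was measured in 2 libraries of pooled ID8 tumours. The deposited values are raw counts of UMIs, one matrix a library, made by the authors with Cell Ranger 8.0.1 on mm10, per the submitters' processing notes; its annotation release is not stated there. The files held 16390 chemoresistant and 14390 primary barcodes, with 158118781 and 141334623 UMIs. Filters were a minimum of 500 UMIs and 250 genes and a maximum of 20% mitochondrial UMIs. Scrublet (scanpy 1.11.5, expected rate 0.08) marked 304 primary barcodes but 0 chemoresistant ones, so a share of 0.8% per 1000 barcodes was used for the chemoresistant library and removed 1778.

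A cell took the class with at least 3 detected markers whose detected fraction led the next class by 0.1; this rule was set after seeing the data, and 1615 chemoresistant and 1745 primary cells stayed unassigned. Leiden clusters (leidenalg 0.10.2, resolution 1, 30 components, 15 neighbours, 2000 variable genes) were made without the 10 genes and gave the same class in 95.6% of 22290 classed cells.

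Counts were summed per class and library as CPM, and ratios were formed for classes with at least 100 cells in both. With 1 library per group no test was run; a fold of 1.5 is a rule of size, over genes of at least 10 CPM. Intervals are exact Poisson, exact binomial (Clopper-Pearson) or, for ratios, exact conditional binomial, at 95%. The members and lists were chosen with earlier results of these data known. Every member was named in the comparison of whole classes, but only some in subsets and clusters. Of each related list, up to 3 genes with the highest and 3 with the lowest tumour-like ratio were named, plus a few fixed partners. Ratios were tested on simulated data.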

Additional observations from a re-analysis of the deposited data

Results flagged for a closer look

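B2m differed in direction between classes. Its log2 ratio of chemoresistant over primary was -1.26 in fibroblast-like cells and 0.75 in dendritic-like, 0.69 in B-cell-like and 0.61 in T-cell-like cells, each past 1.5-fold. H2-T23 likewise had a log2 ratio of 0.64 in tumour-like and -0.94 in fibroblast-like cells. With 1 library per group these differences between classes were not tested. The fibroblast-like values rest on cluster 17 in the chemoresistant and cluster 14 in the primary library.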

How the results depend on the processing

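No paired analysis was possible because each group is 1 library. In 182 recomputations of the 15 member ratios past 1.5-fold, 181 kept their direction and 148 stayed past it. Tap1 in fibroblast-like cells turned to 0.15 with cells thinned to 1000 UMIs, and the cause was not tested. The value of Nlrc5 within cluster 4 of the neutrophil-like cells was not among these recomputations. Its log2 ratio was 1.94 there, against -0.61 over the whole class. In the tumour-like class the median log2 ratio of the 10 genes, 0.12, was -0.020 as a mean over cells, -0.12 after thinning, -0.10 as a mean over 2 shared clusters (chosen after seeing the data), 0.27 when centred on the median gene and 0.24 without cycling cells. The number past 1.5-fold higher, 2, was 1 with cluster classes, with doublets kept, after thinning and over shared clusters, and 0 as a mean over cells or at 2-fold. The number lower, 1, was 2 with cluster classes, as a mean over cells and after thinning, with Nlrc5 as the second, and 0 at 2-fold. With no filter beyond 1 count, 21.1% of all genes were past 1.5-fold higher and 28.3% lower in that class. The share of tumour-like cells with H2-T23 was lower in the chemoresistant than in the primary library at 500 UMIs, opposite to that at 1000 and 5000. Depth limits Nlrc5 most, with 499 chemoresistant and 194 primary UMIs in tumour-like cells.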
